A study of Mus musculus with 19 samples.

Results

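The Ifi200 genes, also called PYHIN genes, form a cluster of interferon-inducible genes on mouse chromosome 1. The 8 listed members were Ifi202b, Ifi203, Ifi204, Ifi205, Mnda, Mndal, Pyhin1 and Aim2, and each was taken where a probe set was annotated to that 1 gene, with the brightest probe set where there were several. Of the 8, 6 were measured in this way among 22180 genes in all: Ifi202b, Ifi204, Ifi205, Mndal, Aim2 and Pyhin1, whose current symbol is Ifi209. Ifi203 and Mnda (now Ifi211) had only a probe set shared with other genes, so no value is given for them. A further 4 genes of the family, Ifi207, Ifi208, Ifi213 and Ifi214, had a probe set of their own and stood beside the members. Ifi202b was chosen by its measured log2 difference between Mb1-Cre tumours and the other tumours, and the other members by family name, so the tumour values of Ifi202b are given as a description without a test. The question was whether its neighbours shared that difference.

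PYHIN proteins carry a HIN domain that binds DNA, and most also carry a pyrin domain through which they join other proteins. Aim2 senses double-stranded DNA in the cytosol and assembles, with Pycard and Casp1, the inflammasome that matures interleukin-1 beta. Ifi204 is known as a sensor of DNA that signals through STING to interferon genes. The protein of Ifi202b lacks a pyrin domain and is known to hold back Aim2. Ifi202b lies in a lupus susceptibility region and is known for expression that differs strongly between inbred strains. In the spleen the family is expressed in B cells, T cells and myeloid cells, to extents that differ between its genes.

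RNA came from whole spleens of 19 mice, with 1 array per mouse and 5 groups. The study placed a conditional human HGAL gene, which germinal centre B cells normally express and which acts in B cell receptor signalling, at the Rosa26 locus and switched it on with a Cre driver. Tumour-bearing spleens came from mice with Mb1-Cre (5 mice), which acts in B lineage cells, Aid-Cre (4 mice), which acts in germinal centre B cells, and Sca1-Cre (4 mice), which acts in haematopoietic stem and progenitor cells. Sca1-Cre mice without a tumour gave 3 pre-tumour spleens, and 3 wild-type mice served as controls. All mice had lived in conventional housing with exposure to common pathogens; strain, sex and age were not given in the labels. No spleen carried a Cre driver without HGAL, so the effect of a driver or its genetic background and that of HGAL in those cells cannot be told apart. Tumour purity was not given, and in whole spleen a change in the number of cells of a type and a change in RNA per cell cannot be told apart. Markers of B cells averaged between 7.16 and 11.07 on the log2 scale over the arrays, and no B cell marker had a group mean near background.

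Promoter windows were read first, because most of these genes are known as interferon targets. The windows, from RefSeq on build GRCm38.p6, ran from 250 bases before to 50 bases after each start site. The core of the interferon-stimulated response element was searched as GAAA, any 2 bases and GAAA again, on both strands. It was present in 10 of the 14 windows of family genes, against 3.44% of 32851 promoters of the same length. Counted by gene, 9 of the 12 family genes with an entry held it in at least 1 window. Of the 5 measured members with an entry, Mndal and Ifi205 held it; Ifi204 had no entry. The sequences of the 250 bases before the start site are shown for the gene that set Mb1-Cre tumours apart, for both members with the element and for Pyhin1, which lacked it but varied with Mndal. They read 5′ to 3′ on the gene's strand, with the element in capitals, at chr1:173982845-173983094 (minus strand) for Ifi202b, chr1:173880188-173880437 (minus) for Mndal, chr1:174031756-174032005 (minus) for Ifi205 and chr1:173630609-173630858 (plus) for Pyhin1.
Ifi202b: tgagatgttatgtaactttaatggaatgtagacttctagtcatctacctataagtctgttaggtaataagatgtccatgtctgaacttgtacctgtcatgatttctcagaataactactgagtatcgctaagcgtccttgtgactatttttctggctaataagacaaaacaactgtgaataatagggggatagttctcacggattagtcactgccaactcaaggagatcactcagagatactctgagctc
Mndal: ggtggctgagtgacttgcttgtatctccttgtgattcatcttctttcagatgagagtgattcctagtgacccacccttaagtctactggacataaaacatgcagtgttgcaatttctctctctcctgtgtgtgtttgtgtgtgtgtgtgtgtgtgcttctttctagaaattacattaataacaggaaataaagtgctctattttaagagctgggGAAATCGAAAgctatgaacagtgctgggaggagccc
Ifi205: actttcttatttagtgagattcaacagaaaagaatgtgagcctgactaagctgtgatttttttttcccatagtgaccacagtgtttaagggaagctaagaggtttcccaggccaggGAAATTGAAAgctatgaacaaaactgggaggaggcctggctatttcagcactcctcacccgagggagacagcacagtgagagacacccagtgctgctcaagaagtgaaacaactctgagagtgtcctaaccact
Pyhin1: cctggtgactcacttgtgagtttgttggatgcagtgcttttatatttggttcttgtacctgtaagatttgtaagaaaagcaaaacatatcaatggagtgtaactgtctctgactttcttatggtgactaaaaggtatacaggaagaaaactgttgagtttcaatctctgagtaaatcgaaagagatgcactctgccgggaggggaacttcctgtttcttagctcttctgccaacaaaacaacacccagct
The element began 36 bases before the start site in Mndal and 134 bases before it in Ifi205, whose window held another on the opposite strand after the start. Mndal had another start site, not shown, with the element on the opposite strand 54 bases before it. The window of Ifi202b had none. It held the gamma-activated site pattern TTC, any 3 bases and GAA, which was found in 8.3% of all promoters, 148 bases before its start. Neither it nor the other 3 windows held the PU box GAGGAA, present in 28.3% of promoters, which Aim2 held. The AP-1 pattern TGANTCA, present in 7.81% of promoters, was found in Mndal and Pyhin1. These are matches of letters in the reference build, not sites shown to be bound. The strain of the mice was not given, so their own sequences, that of Ifi202b among them, may differ from these windows.

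Ifi202b was above background only in Mb1-Cre tumours and, by a narrow margin, in 1 pre-tumour spleen. An array's 40th percentile, which lay between 4.72 and 4.90 on the log2 scale, was taken as the edge of background. The 5 Mb1-Cre tumours read 6.44, 5.47, 5.11, 5.91 and 5.34, where array medians lay between 5.23 and 5.40. The 4 Aid-Cre tumours read 3.18, 3.39, 3.39 and 4.10, and the 4 Sca1-Cre tumours 3.45, 3.18, 3.40 and 3.49. Pre-tumour spleens read 3.47, 3.39 and 4.78, and wild-type spleens 4.51, 4.66 and 3.59. All 5 Mb1-Cre tumours thus lay above all 14 other arrays. All 8 other tumours and all 3 wild-type spleens were below their array's 40th percentile, where the level of a gene is not exact. The third pre-tumour spleen and 2 wild-type spleens had the highest values after the Mb1-Cre tumours. That pre-tumour spleen (4.78) was close to its array's 40th percentile of 4.76, and the second wild-type spleen (4.66) to its own of 4.80.

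The mean of Ifi202b was 5.65 ± 0.53 (SD, n = 5) in Mb1-Cre tumours, 4.25 ± 0.58 (n = 3) in wild type, 3.88 ± 0.78 (n = 3) in pre-tumour spleens, 3.52 ± 0.40 (n = 4) in Aid-Cre tumours and 3.38 ± 0.14 (n = 4) in Sca1-Cre tumours. In this order the step from Mb1-Cre tumours to wild type, 1.40, was larger than the larger SD of both groups and without overlap. The 3 lower steps were each smaller than the larger SD and overlapped. Mb1-Cre tumours exceeded the mean of the Aid-Cre and Sca1-Cre tumour groups by a measured 2.20 ± 0.27 (SE), the difference that the choice of Ifi202b used. Because all 8 other tumours were near background, the fold is only a bound: with each of them set to its array's 40th percentile, Mb1-Cre tumours were at least 1.81-fold higher. The measured difference was 2.14 ± 0.31 against Aid-Cre tumours and 2.27 ± 0.31 against Sca1-Cre tumours. The measured differences from wild type were -0.87 ± 0.36 in Sca1-Cre and -0.74 ± 0.36 in Aid-Cre tumours, but all arrays of these 3 groups were near background, so no order of their levels is read from them.

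In both comparisons whose difference was not used in the choice, Ifi202b was tested with limma across all genes and did not pass an adjusted p of 0.05. Pre-tumour minus wild-type spleens gave -0.38 ± 0.38 (SE; 95% interval -1.19 to 0.43; adjusted p = 0.936). Aid-Cre minus Sca1-Cre tumours gave 0.14 ± 0.33 (95% interval -0.56 to 0.84; adjusted p = 0.886). All 8 arrays of the latter comparison and 5 of the 6 of the former were near background, so these tests say little about expression of the gene. Those 8 tumour arrays also entered the choice, through the mean of their groups and not through the difference between them.

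**Figure D1:**
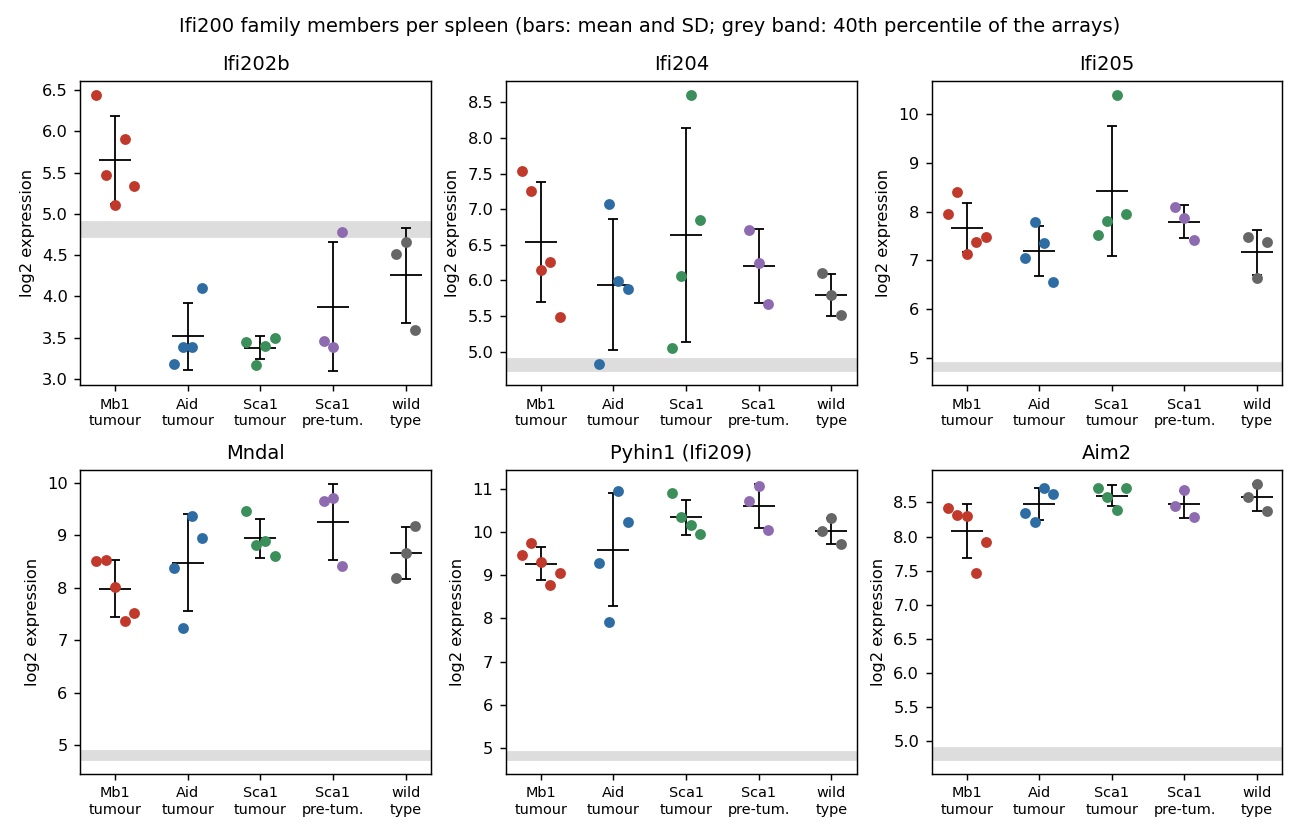
Log2 expression of the 6 measured members, 1 point per mouse, in 5 groups, with the mean and SD as bars and the range of the arrays' 40th percentiles as a grey band. Ifi202b lies above the band in the 5 Mb1-Cre tumours, from 5.11 to 6.44, while the other members overlap between Mb1-Cre and the other tumours and lie mostly above the band.

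None of the neighbours of Ifi202b passed the test between Mb1-Cre and the other tumours. The 95% interval of the difference ended at or below 1.32 in each of the 5 other measured members. Of these 5 members, 0 were called between Mb1-Cre and the other tumours by limma, where 0.018% of all genes were called (4 genes). Of those 4, 1 was Ifi202b, from which nothing is read because this difference chose it, and the others were Apol9a, Gpsm3 and G0s2, whose calls were lost in 2, 9 and 8 of 30 alternatives. At an unadjusted p under 0.05, 0 were higher and 2 lower, where 12.8% of all genes passed in either direction. Ifi204 had a small positive difference and the other 4 had negative ones, with a median over the 5 members of -0.45 against -0.01 over all genes. None of the 5 had Mb1-Cre tumours wholly above or below the others, a pattern found in 0.221% and 0.207% of all genes. The 4 other family genes were not called either.

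Aim2, the inflammasome sensor, read 8.43, 8.31, 8.30, 7.46 and 7.92 in Mb1-Cre tumours. In Aid-Cre tumours it read 8.34, 8.22, 8.71 and 8.62, and in Sca1-Cre tumours 8.72, 8.57, 8.38 and 8.72. Mb1-Cre tumour replicates 4 and 5 lay below all other tumours and the other 3 within their range. Mb1-Cre minus other tumours gave -0.45 ± 0.15 (95% interval -0.76 to -0.14; unadjusted p = 0.0069, adjusted p = 0.225 by limma), so Aim2 did not pass. Pre-tumour spleens (8.45, 8.68 and 8.29) and wild-type spleens (8.58, 8.77 and 8.37) lay within the range of the Aid-Cre and Sca1-Cre tumours except for the highest wild-type value. The SD of Aim2 lay between 0.16 and 0.40 in the 5 groups, against 0.34 to 1.33 for Ifi205.

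Ifi204, the STING-linked sensor, read 7.54, 7.26, 6.15, 6.26 and 5.48 in Mb1-Cre tumours. It read 4.83, 7.07, 5.99 and 5.87 in Aid-Cre tumours and 5.05, 6.06, 8.60 and 6.84 in Sca1-Cre tumours. The highest and the lowest tumour were thus both outside the Mb1-Cre group. The difference of Mb1-Cre from the other tumours was 0.25 ± 0.51 (95% interval -0.82 to 1.32; limma adjusted p = 0.870). It depended on single arrays, and was -0.02 without Sca1-Cre tumour replicate 1 and -0.0018 without Mb1-Cre tumour replicate 1. Pre-tumour spleens read 6.70, 6.24 and 5.67, and wild-type spleens 6.10, 5.79 and 5.51.

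Ifi205, an interferon-inducible member known from myeloid cells, lies next to Ifi202b in the order of measured genes. It read 7.96, 8.40, 7.14, 7.38 and 7.49 in Mb1-Cre tumours, 7.05, 7.79, 7.35 and 6.57 in Aid-Cre tumours and 7.53, 7.81, 10.40 and 7.95 in Sca1-Cre tumours. The third Sca1-Cre tumour stood apart from all 18 other arrays. Mb1-Cre minus other tumours was -0.13 ± 0.39 (95% interval -0.97 to 0.70; adjusted p = 0.914), and 0.20 without that array. Wild-type spleens read 7.48, 6.63 and 7.39, and pre-tumour spleens 8.10, 7.87 and 7.42.

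Mndal, a nuclear member named for its likeness to the human myeloid nuclear differentiation antigen, lies on the other side of Ifi202b. It read 8.50, 8.52, 8.02, 7.36 and 7.51 in Mb1-Cre tumours. It read 8.37, 7.23, 9.36 and 8.95 in Aid-Cre tumours and 9.46, 8.81, 8.89 and 8.60 in Sca1-Cre tumours. All 5 Mb1-Cre tumours lay below all 4 Sca1-Cre tumours, while the Aid-Cre tumours spanned both. Mb1-Cre minus other tumours was -0.72 ± 0.34 (95% interval -1.44 to -0.01; adjusted p = 0.383), opposite in sign to Ifi202b and not called.

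Pyhin1 followed the pattern of Mndal. Its values were 9.46, 9.74, 9.31, 8.76 and 9.04 in Mb1-Cre tumours, 9.27, 7.91, 10.94 and 10.22 in Aid-Cre tumours and 10.90, 10.34, 10.17 and 9.96 in Sca1-Cre tumours. Again all Mb1-Cre tumours lay below all Sca1-Cre tumours, and the second Aid-Cre tumour was the lowest of all 19 arrays. Mb1-Cre minus other tumours was -0.70 ± 0.37 (95% interval -1.49 to 0.08; adjusted p = 0.444). Pre-tumour spleens held the highest means of both genes, 10.60 ± 0.51 for Pyhin1 and 9.26 ± 0.73 for Mndal (n = 3).

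**Figure D2:**
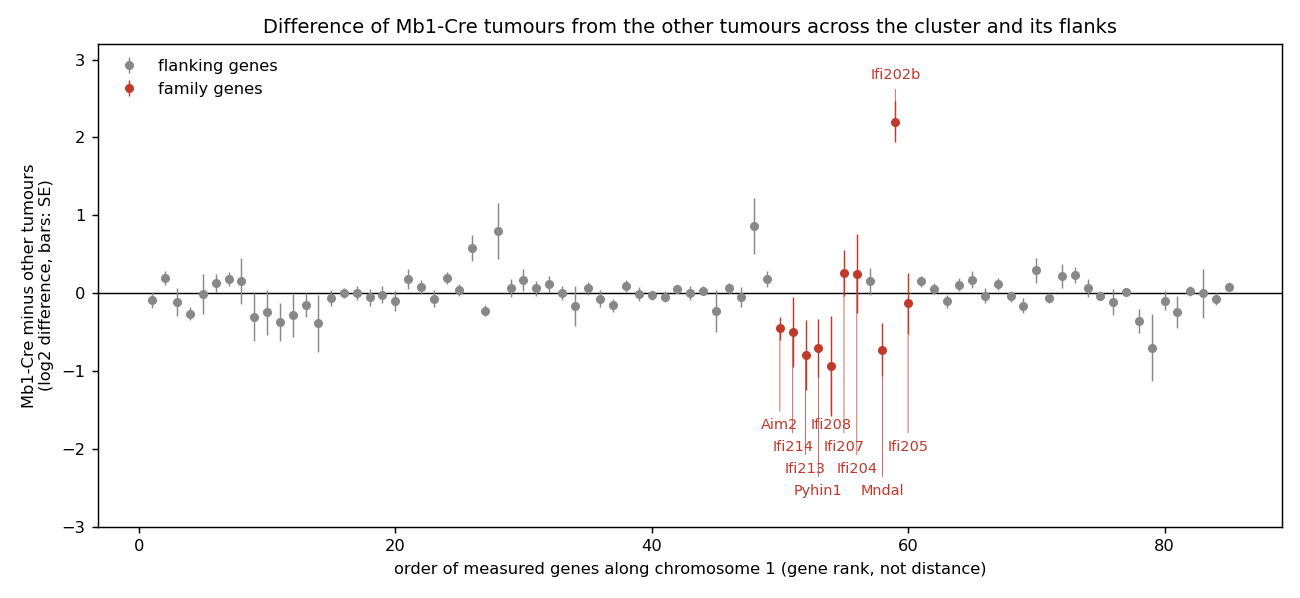
Difference of Mb1-Cre tumours from the mean of the other tumour groups (log2, bars SE) for measured genes in their order along chromosome 1, with family genes in red and flanking genes in grey; the horizontal axis is rank and not distance. Ifi202b stands at 2.20, the other family genes lie between -0.94 (Ifi208) and 0.26 (Ifi207), and flanking genes between -0.70 and 0.86.

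Of the 4 further family genes none was called. The difference of Mb1-Cre from the other tumours was 0.26 for Ifi207, -0.94 for Ifi208, -0.79 for Ifi213 and -0.50 for Ifi214, against -0.72 to 0.25 over the 5 members, with adjusted p-values of 0.748, 0.560, 0.483 and 0.665 by limma. Ifi208, Ifi213 and Ifi214 were near background in some tumours. The genes within 2 Mb on either side of the cluster gave 75 measured genes, of which 0 were called, against 0.018% of all genes. In 0 of them Mb1-Cre tumours lay wholly above or below the others, against 0.221% and 0.207% of all genes. Of them 7 were higher and 3 lower at an unadjusted p under 0.05, which 12.8% of all genes passed in either direction. Their median difference was 0.00. Whether probes of 1 family gene also bind transcripts of another was not tested.

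Between Mb1-Cre and single tumour groups, again 0 of 5 members were called. Against Aid-Cre tumours limma called 0.0451% of all genes, and the member differences ran from -0.49 (Mndal) to 0.60 (Ifi204), with 1 member, Aim2 (-0.39 ± 0.17), at an unadjusted p under 0.05, as were 8.76% of all genes. Against Sca1-Cre tumours limma called 0.0406% of all genes, and all 5 members had negative differences. Pyhin1 was at -1.08 ± 0.44 (adjusted p = 0.220), Mndal at -0.96 ± 0.40 (adjusted p = 0.232) and Aim2 at -0.52 ± 0.17 (adjusted p = 0.154). These 3 had an unadjusted p under 0.05, as did 17.6% of all genes. The 2 that did not overlap, Pyhin1 and Mndal, compare with 3.37% of all genes in which every Mb1-Cre tumour lay below every Sca1-Cre tumour.

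Against wild type the members were not called in any tumour group. For Mb1-Cre tumours 0.0% of all genes were called (0 genes; the unadjusted p was under 0.05 for 11.3%), and the differences ran from -0.76 (Pyhin1) to 0.74 (Ifi204), with Aim2 at -0.49 ± 0.19 (adjusted p = 0.344). For Aid-Cre tumours 0.018% of all genes were called, and the members lay between -0.44 (Pyhin1) and 0.14 (Ifi204). For Sca1-Cre tumours 0.0406% were called, and all 5 members had positive differences, from 0.02 (Aim2) to 1.26 (Ifi205). Ifi205 in Sca1-Cre tumours exceeded all wild-type values, with a difference of 1.26 ± 0.53 (95% interval 0.14 to 2.37; adjusted p = 0.381), a lack of overlap seen in 6.21% of all genes. Without the third Sca1-Cre tumour the difference was 0.60.

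The pre-tumour spleens gave no call either. They also differed in H2-Ea, a gene with a null allele in some inbred strains. It read 10.31 to 10.65 in them, 3.71 to 4.22 in wild type and 3.82 to 4.13 in Sca1-Cre tumours. In these comparisons, tumour stage and any difference in strain background cannot be told apart. Between pre-tumour and wild-type spleens 0 of 6 members and 0.00451% of all genes were called. Ifi205, Mndal and Pyhin1 had positive differences of 0.63, 0.59 and 0.58, each with an adjusted p over 0.9 and a 95% interval that included 0. Between Sca1-Cre tumours and pre-tumour spleens 0 of 5 members and 0.0% of all genes were called; the unadjusted p was under 0.05 for 5.34% of genes. Aid-Cre minus Sca1-Cre tumours gave 0 of 6 members, where 0.0451% of all genes were called. In that last comparison Ifi205 was at -1.23 ± 0.49 (adjusted p = 0.289). The comparisons share groups, so their values are not independent. In the 5 members other than Ifi202b, every pair of groups next to each other in the order of means overlapped and differed by less than the larger SD.

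**Figure D3:**
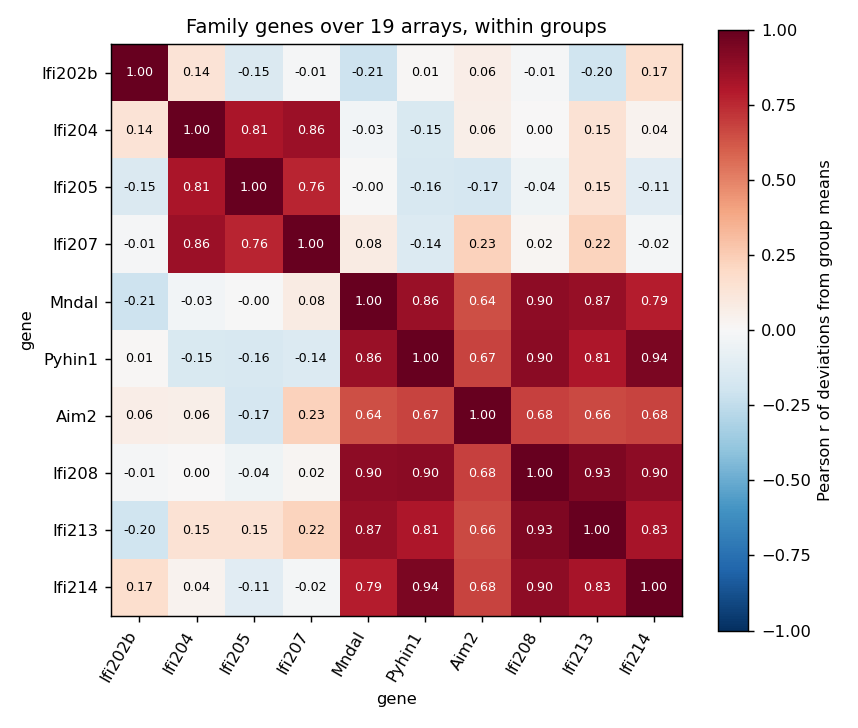
Pearson correlation over 19 arrays between family genes, after each group's mean was subtracted from its arrays. Ifi204, Ifi205 and Ifi207 form a block at 0.76 to 0.86, Mndal, Pyhin1, Aim2, Ifi208, Ifi213 and Ifi214 a block at 0.64 to 0.94, and Ifi202b lies between -0.21 and 0.17 with all 9 others.

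Within groups the family varied in separate sets, described after their values were seen. Pearson's r over the 19 arrays, after group means were removed, was 0.76 to 0.86 (Spearman's rho 0.74 to 0.84) among Ifi204, Ifi205 and Ifi207. It was 0.64 to 0.94 (rho 0.69 to 0.95) in the 15 pairs among Mndal, Pyhin1, Aim2, Ifi208, Ifi213 and Ifi214. Between these sets it was -0.17 to 0.23. In each pair, the 2 arrays farthest from the median of its first gene were then removed. The ranges within sets were 0.64 to 0.82 and 0.59 to 0.94, and the range between sets widened to -0.28 to 0.41. Ifi202b was at -0.21 to 0.17 with each of the others, and at -0.18 to 0.33 after that removal. However, 13 of its 19 values were near background, which leaves little to correlate. The arrays share their cell mixture, so these values describe the arrays and carry no test.

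Levels of Ifi204 and Ifi205 correlated with genes induced by type I interferon, and those of Mndal, Pyhin1 and Aim2 with markers of several cell types. The mean of 21 measured interferon response genes had a within-group r of 0.82 with Ifi204 and 0.72 with Ifi205, against -0.09 with Ifi202b. Ifi205 also had an r of 0.64 with macrophage markers, where Ifi204 had 0.40. That mean was highest in Aid-Cre tumour replicate 2 (8.66) and Sca1-Cre tumour replicate 3 (8.54), and the latter array also held the highest Ifi204 (8.60) and Ifi205 (10.40). Pyhin1 had an r of 0.85 with the mean of 11 B cell markers and 0.80 with that of 9 T cell markers, Mndal 0.67 and 0.71, and Aim2 0.62 and 0.64. The r with dendritic cell markers was 0.73 for Aim2, 0.55 for Pyhin1 and 0.54 for Mndal, and that with NK cell markers 0.61 to 0.66 for the 3 genes. Aid-Cre tumour replicate 2 was lowest in B cell markers (7.16), T cell markers (6.96), Pyhin1 (7.91) and Mndal (7.23). Neutrophil and erythroid markers ran the other way, with r of -0.73 and -0.67 for Pyhin1, -0.50 and -0.71 for Mndal and -0.51 and -0.70 for Aim2. The part of cell mixture in these relations was not tested.

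Myeloid markers were higher on average in the Mb1-Cre tumours, in which Ifi202b was above background. All 13 neutrophil markers were higher there than in the other tumours, with a median difference of 1.72 against -0.01 over all genes; 0 were called by limma and 12 had an unadjusted p under 0.05, led by Ly6g at 3.01 ± 0.81 (adjusted p = 0.190). All 14 monocyte and macrophage markers were higher too, with a median of 0.63, 0 called and 7 at an unadjusted p under 0.05, among them Cd68 at 0.79 ± 0.21 (adjusted p = 0.188). The neutrophil mean was 10.43 to 11.34 in Mb1-Cre tumours, 6.90 to 10.98 in Aid-Cre, 8.44 to 10.34 in Sca1-Cre tumours, 7.83 to 9.44 in pre-tumour and 7.70 to 9.74 in wild-type spleens. Aid-Cre tumour replicates 1 and 2 (10.37 and 10.98) and Sca1-Cre tumour replicates 2 and 3 (10.26 and 10.34) overlapped or came close to the Mb1-Cre range. Their Ifi202b values were 3.18, 3.39, 3.18 and 3.40, all near background. The macrophage mean was 8.25 to 9.27 in Mb1-Cre tumours, 7.41 to 8.83 in Aid-Cre and 7.55 to 8.85 in Sca1-Cre tumours. Within groups, Ifi202b had an r of -0.34 with the neutrophil and -0.08 with the macrophage mean. These values rest mostly on arrays in which Ifi202b was near background (13 of the 14 outside Mb1-Cre tumours). The part of cell mixture in the Ifi202b difference was not tested.

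**Figure D4:**
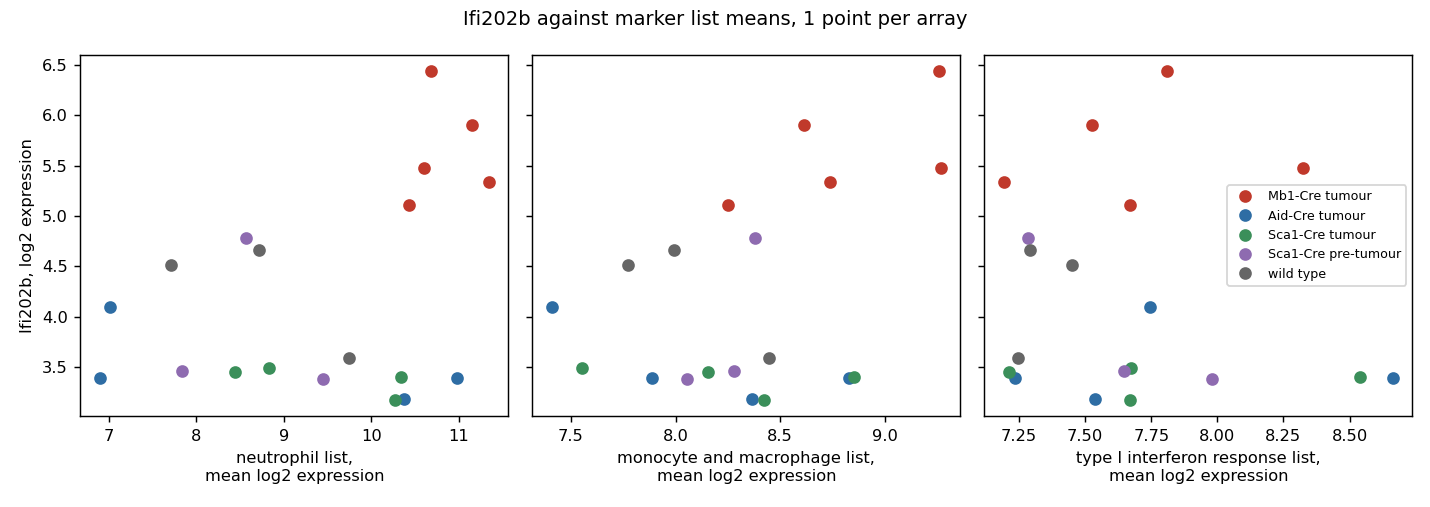
Ifi202b (log2) against the mean log2 expression of neutrophil markers, monocyte and macrophage markers and interferon response genes, 1 point per array, coloured by group. The 5 Mb1-Cre tumours lie above all other arrays at Ifi202b values from 5.11 to 6.44. The 4 tumours of the other groups with neutrophil means from 10.26 to 10.98 lie at 3.18 to 3.40, near background.

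Lymphocyte markers were lower on average in Mb1-Cre tumours than in the mean of the other tumour groups, with 0 called. Of B cell markers 0 of 11 were higher (median -0.29). Of T cell markers 0 of 9 were higher (median -0.52), and Zap70 at -0.52 had an unadjusted p of 0.0442 by limma. Of NK cell markers 0 of 7 were higher (median -0.43), with Klrb1c at -0.75 ± 0.19 (adjusted p = 0.158). Against Aid-Cre tumours alone, 4 of 11 B cell markers (median -0.12) and 4 of 9 T cell markers (median -0.08) were higher. Of NK cell markers 2 of 7 were higher there (median -0.58), and 1 was called lower, where limma called 0.0451% of all genes. That call was not followed under the alternatives. Against Sca1-Cre tumours alone, the medians were -0.46, -0.96 and -0.49 for B, T and NK cell markers, with 0 higher and 0 called. Erythroid markers were higher in 6 of 6 (median 0.58), plasma cell markers in 5 of 7 (median 0.14; Xbp1 at 0.48, unadjusted p = 0.0043), and dendritic cell markers in 3 of 8 (median -0.10). Exocrine pancreas markers stood out in Mb1-Cre tumour replicate 2 (mean 7.50) and wild type replicate 2 (5.93), against 4.92 to 5.61 in the others. The Ifi202b difference was 2.25 without both arrays.

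No partner of the family in DNA sensing passed the test between Mb1-Cre and the other tumours. Of 16 measured genes of cytosolic DNA sensing, 1 was higher in Mb1-Cre than in the other tumours (median -0.19) and 0 were called; Dhx9, a helicase that binds nucleic acids, was at -0.44 ± 0.10 (adjusted p = 0.146) and Polr3c, a subunit of RNA polymerase III, at -0.20 ± 0.09 (adjusted p = 0.373). Of 10 genes of the Aim2 inflammasome and its products, 5 were higher (median -0.02) and 0 were called; Ctsb, a lysosomal protease, was at 0.64 ± 0.19 (adjusted p = 0.199), Panx1, a membrane channel, at -0.45 ± 0.19 (adjusted p = 0.331) and Casp1 at -0.22 ± 0.18. Interferon response genes were higher in 8 of 21 (median -0.12), with 0 called and 0 at an unadjusted p under 0.05. Among 10 interferon receptors and regulators 4 were higher and 0 called, with Spi1, the myeloid and B cell factor PU.1, at 0.58 ± 0.16 (adjusted p = 0.195) and Irf8 at -0.56 ± 0.27 (adjusted p = 0.404).

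In 1 other comparison the inflammasome list held a call, picked from several lists read over 9 comparisons. Of its 10 genes 1 was called there, where limma called 0.0451% of all genes. An unadjusted p under 0.05 was seen in 2 of the 10, as in 13.6% of all genes. Aid-Cre minus Sca1-Cre tumours gave -1.11 ± 0.17 for Casp4, the caspase of the non-canonical inflammasome, with a limma adjusted p of 0.0281. The call was lost in 8 of 30 alternatives, among them the fit of the compared groups alone (adjusted p = 0.346) and the replicate block (adjusted p = 0.145), and without Aid-Cre tumour replicate 1 or 4 or Sca1-Cre tumour replicate 3 or 4 (adjusted p = 0.077 to 0.124), while the difference stayed between -1.20 and -0.99. The same comparison gave -0.96 ± 0.22 for Casp1 (adjusted p = 0.0931). Aim2 itself was at -0.13 ± 0.18 (adjusted p = 0.796) in that comparison.

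No gene listed from the lupus-associated interval around the cluster passed the test between Mb1-Cre and the other tumours. Of 14 measured, 4 were higher in Mb1-Cre than in the other tumours (median -0.18) and 0 were called; Fcer1g, the common gamma chain of Fc receptors, was at 0.78 ± 0.26 (adjusted p = 0.236). H2-Ea, the alpha chain of MHC class II I-E, is absent from some inbred strains through a null allele and was read because the labels name no strain. It was 10.79 and 8.76 in Mb1-Cre tumour replicates 2 and 4 and 10.31, 10.65 and 10.45 in the pre-tumour spleens. In the other 3 Mb1-Cre tumours and in all Aid-Cre, Sca1-Cre and wild-type arrays it lay between 3.71 and 4.29. The Mb1-Cre tumours with high H2-Ea had Ifi202b at 5.47 and 5.91, and those with low H2-Ea at 6.44, 5.11 and 5.34. Nnt, another gene with a null allele in some strains, differed by 0.08 ± 0.16 between Mb1-Cre and the other tumours (adjusted p = 0.857). Mb1-Cre tumours were at 0.33 against Aid-Cre and -0.16 against Sca1-Cre tumours for Nnt. Aid-Cre minus Sca1-Cre tumours gave -0.49 for it, with an unadjusted p under 0.05 by limma and no call. The part of strain background in the Ifi202b difference was not tested.

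The genes most like Ifi202b over the 19 arrays were not family members. By Pearson's r they were Colec12 (0.82), a scavenger receptor, Vsig4 (0.79), a complement receptor of macrophages, Dapk1 (0.78), a death-associated kinase, Gpsm3 (0.78), a regulator of G protein signalling, and Zfp710 (0.76), a zinc finger protein. Spearman's rho was 0.79, 0.47, 0.74, 0.77 and 0.74. Gpsm3, at 8.18 in Mb1-Cre tumours and 7.50 to 7.83 in the other group means, was the one of these called, with a difference of 0.58 ± 0.08 (limma adjusted p = 0.0181), and Vsig4 was near background in all groups. Family genes ranked far lower among all other genes, from Ifi207 (r = 0.19, rank 5545) and Ifi204 (r = 0.15, rank 6563) to Mndal (-0.51, rank 21698) and Aim2 (-0.53, rank 21803). These correlations include the group differences that chose Ifi202b and are a description only.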

How the data were processed

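RNA of 19 spleens, taken with Trizol, was biotin-labelled and measured on 1 array each, per the labels' protocols. The submitters' processing notes name RMA and oligo, with no version given in the sources used here. The authors deposited log2 expression per probe set, which was used unchanged. Array medians lay between 5.23 and 5.40, and precision is limited by the few arrays per group. Of 41345 probe sets, 23521 named exactly 1 gene; the brightest of each gene was kept, with no filter, leaving 22180 genes.

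Groups came from the titles, which call the samples biological replicates. One limma 3.58.1 fit (R 4.3.3) of group means over all arrays gave 9 contrasts, two-sided, with Benjamini-Hochberg adjustment over all genes and calls at an adjusted p under 0.05. The fit was tested on simulated data. Other tumours means the equal-weight mean of the Aid-Cre and Sca1-Cre tumour groups. Named genes were the members, other family genes, the 5 genes most correlated with Ifi202b, H2-Ea, called flanking genes and up to 4 genes of smallest p per list. Where a count was 5 or fewer, the genes were named after their values were seen. Gene order came from the RefSeq table of GRCm38.p6. The members and lists were chosen with earlier results of these data known. Alternatives were other normalizations, fits without dim genes, with averaged probe sets, with fewer groups, with a variance trend or array weights, with a replicate block or a covariate for sex, and with arrays left out.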

Additional observations from a re-analysis of the deposited data

Results flagged for a closer look

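Of the 30 sets of 1 family gene in 1 group of 4 or 5 tumours that were screened for a lone extreme value, 1 had one. Ifi205 in Sca1-Cre tumour replicate 3 read 10.40, while the other 3 Sca1-Cre tumours lay between 7.53 and 7.95. Chance gives such a value in about 1 of 20 sets. The same array had the highest Ifi204 value (8.60) and the second highest mean of interferon response genes (8.54), and a B cell marker mean of 8.52, the lowest of its group. The part of these in the Ifi205 value was not tested.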

How the results depend on the processing

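The count of members called stayed at 0 in all 9 comparisons under all 30 alternatives run, of which 19 left out 1 array each. The Ifi202b difference of Mb1-Cre from the other tumours was 2.01 to 2.34 with 1 array left out and 2.17 to 2.37 under the other settings. Of 1620 member differences under alternatives, 27 changed sign, all in 12 of the 54 differences and none larger than 0.63 as reported; the causes were not tested. Same-numbered replicates did not vary together (8 of 33 pairs had an r over 0.1), so the numbers do not pair the arrays. With the replicate number as a block, Ifi204 was at 0.16 between Mb1-Cre and Sca1-Cre tumours, the same value as without Mb1-Cre tumour replicate 5. No other group had a replicate 5, so the block set that array aside. The block changed no call of a member. With the covariate for sex, Aid-Cre minus wild type was -0.0061 for Ifi204 and -0.16 for Ifi205, which was -0.24 without both arrays with pancreatic transcripts. Sca1-Cre tumours minus wild type was -0.0649 for Aim2 after quantile normalization and -0.0445 after cyclic loess.

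With 1 array left out, Mb1-Cre minus other tumours ran from -0.0161 to 0.58 for Ifi204 and from -0.31 to 0.20 for Ifi205. Mb1-Cre minus Aid-Cre tumours ran from -0.88 to 0.13 for Pyhin1, and Mb1-Cre minus Sca1-Cre tumours from -0.63 to 0.56 for Ifi204. Aid-Cre tumours minus wild type ran from -0.23 to 0.52 for Ifi204, -0.24 to 0.23 for Ifi205, -0.49 to 0.22 for Mndal and -0.89 to 0.12 for Pyhin1. Sca1-Cre tumours minus wild type ran from -0.0792 to 0.12 for Aim2. Sca1-Cre tumours minus pre-tumour spleens ran from -0.22 to 0.96 for Ifi204 and -0.0321 to 0.93 for Ifi205, both lowest without Sca1-Cre tumour replicate 3. Aid-Cre minus Sca1-Cre tumours ran from -0.0587 to 0.25 for Ifi202b.

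The number of all genes called moved with single arrays. Between Mb1-Cre and other tumours it was 4. It was 2 to 49 with 1 array left out, highest without Aid-Cre tumour replicate 2, and 2 to 9 under the other settings. Between Mb1-Cre and Sca1-Cre tumours it was 9. It was 0 to 121 with 1 array left out, highest without Aid-Cre tumour replicate 3, and 0 to 33 under the other settings. Between Aid-Cre and Sca1-Cre tumours it was 10. It was 1 to 229 with 1 array left out, again highest without Aid-Cre tumour replicate 3, and 0 to 17 under the other settings. Between Mb1-Cre tumours and wild type it was 0, and up to 61 under other settings. With the replicate block it was 3, 2, 0 and 2 in these 4 comparisons.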
